A study of Ctenopharyngodon idella and Danio rerio with 13 samples.

Results

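Transfer RNA (tRNA) gene rows were selected on their raw counts. They are the rows of the count files whose names give the amino acid, the anticodon and a copy number, such as trnay-gua_8, and that held 10 or more counts in at least 3 of the 8 GSCT and grass carp libraries. The rule kept 165 of the 1578 rows named in this way, out of 1625 tRNA rows and 31338 rows in all. The selection uses counts of both groups, so that a row high in 1 group can pass through that group alone. RNA of sperm was sequenced in 13 libraries, each from the sperm of 1 fish. Sperm came from 3 groups of fish. GSCT (germline stem cell transplantation) samples, 3 in all, came from zebrafish with the genotype label surrogate reproduction, whose transplanted cells were female germline stem cells of grass carp by the series title. The others were 5 wildtype grass carp and 5 wildtype zebrafish. The labels give no ages, no host genotype and no account of whether the hosts kept germ cells of their own.

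A tRNA carries an amino acid to the ribosome and reads a codon through its 3-base anticodon. Its genes are short, are transcribed by RNA polymerase III from promoter elements inside the gene, and occur in many near-identical copies. Mature tRNAs carry no poly(A) tail, and fragments of tRNAs are known as abundant small RNAs of mature sperm in mammals. The libraries were made with a full-length mRNA amplification kit from a small volume of diluted sperm. Whether counts on tRNA rows follow the levels of tRNA molecules in sperm was not tested. Rises and falls below refer to counts on gene rows. Near-identical copies share reads, and the labels do not say how reads that map to several places were counted. A value of a single row is therefore uncertain, and sums over all rows of an anticodon or an amino acid are given beside it. The RefSeq table (assembly HZGC01) lists 1625 tRNA genes of 71 to 112 bases, median 73. All 31314 rows that name a gene matched a symbol there, but copies of tRNA genes cannot be matched one by one, so no positions are reported.

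Counts on named genes per library were 376926 to 2602370 for GSCT, 1335167 to 5471312 for grass carp, and 487 to 248321 for zebrafish. Levels are given in CPM, counts scaled to the same total of named counts in each library. A count of 0 allows up to 1.15 to 7.96 CPM in GSCT libraries and 0.548 to 2.25 CPM in grass carp libraries (3 counts of the total). Sperm markers, 23 genes, all had counts in GSCT and grass carp libraries, with list medians of 27.7 ± 1.31 CPM (n = 3, SD) and 28.0 ± 1.88 CPM (n = 5, SD). Markers of other cell types were covered to a like degree, at 33.7 ± 3.11 and 38.9 ± 2.55 CPM for 15 leukocyte genes, at 23.0 ± 2.42 and 25.5 ± 1.79 CPM for 11 blood cell genes, and at 29.5 ± 4.85 and 34.8 ± 2.31 CPM for 13 testis somatic genes. None of these markers was at 0 over the 8 libraries, and of all of them 1 blood cell gene passed edgeR's test, lower in GSCT. Summed levels of leukocyte markers were 546 to 624 CPM for GSCT and 635 to 868 CPM for grass carp, and those of sperm markers 999.9 to 1062 CPM and 1063 to 1135 CPM. Their part in the tRNA results was not tested. Fewer cells of a type and less RNA per cell cannot be told apart in these bulk samples.

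All 1625 tRNA rows together took a larger share of the counts in GSCT than in grass carp sperm. Their share of named counts was 0.286%, 0.339% and 0.336% in the GSCT libraries. In grass carp libraries 1 to 5 it was 0.173%, 0.121%, 0.149%, 0.172% and 0.118%. Every GSCT library lay above every grass carp library. The means were 0.320% ± 0.0301 (n = 3, SD) and 0.147% ± 0.0265 (n = 5, SD), a ratio of 2.18. This difference was at the smallest p that 56 splits allow (exact two-sided permutation p = 0.0179, adjusted p = 0.0179 over 2 tests). The sum does not depend on the rule for members. Over the 1460 tRNA rows outside the rule the ratio was 1.78 (exact permutation p = 0.0179), and without the 30 rows of highest mean share it was 1.93 (exact permutation p = 0.0179).

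**Figure D1:**
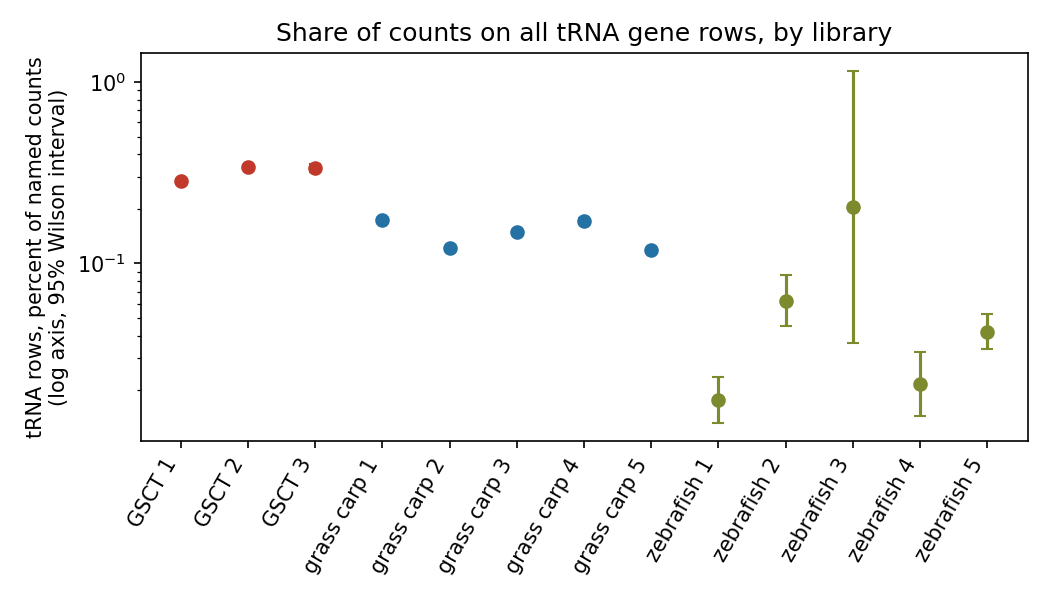
Percent of named counts on all 1625 tRNA rows in each of the 13 libraries (log axis), with 95% Wilson intervals that cover counting error only. The 3 GSCT libraries sit between 0.286% and 0.339%, above the 5 grass carp libraries at 0.118% to 0.173%, and the interval of zebrafish library 3 is wide because it rests on 1 count.

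Mitochondrial protein genes and rRNA genes moved in the same direction. Mitochondrial protein genes took 1.21% ± 0.587 of named counts in GSCT (n = 3, SD) and 0.0195% ± 0.00766 in grass carp (n = 5, SD), and rRNA genes 1.50% ± 0.441 and 0.0769% ± 0.0258. Within grass carp, libraries 1 and 4 had the highest tRNA shares and also the highest shares of mitochondrial genes (0.0278% and 0.0270%) and of rRNA genes (0.118% and 0.0861%). Shares of rRNA genes ordered the libraries of each group as tRNA shares did. Mitochondrial shares did not: grass carp library 3, at a tRNA share of 0.149%, had the lowest of its group, 0.0113%. GSCT library 1 had the lowest tRNA share of its group, 0.286%, and the highest mitochondrial share, 1.79%. These orders were not tested. With both classes taken out of the total, the tRNA ratio was 2.24 (exact permutation p = 0.0179).

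More tRNA rows were expected to show a count in GSCT libraries once totals of named counts were made equal. Totals of tRNA counts were not made equal. A larger tRNA share alone can give more rows with a count, so this result is not separate from the share above. Whether the groups differ at equal tRNA counts was not tested. Thinned to 376926 named counts, GSCT libraries were expected to show a count on 366, 393 and 364 tRNA rows. Grass carp libraries 1 to 5 were expected to show 311, 239, 298, 321 and 245. The means were 374 ± 16.0 (n = 3, SD) and 283 ± 38.0 (n = 5, SD), with no overlap (exact two-sided permutation p = 0.0179, adjusted p = 0.0179 over 2 tests). At full depth the counts of detected rows were 619 ± 221 and 690 ± 87.5, and 590 tRNA rows had no count in any of the 8 libraries. This difference did not pass without GSCT replicate 2 or 3 (exact permutation p = 0.0952, where the smallest possible is 0.0476), nor without grass carp replicate 1 or 3 (exact permutation p = 0.0571, where the smallest possible is 0.0286).

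Counts were spread over many genes. The row of highest mean share over the 8 libraries, trnat-cgu_12, which was not the highest within GSCT, held 2.83% ± 0.158 of tRNA counts in GSCT (n = 3, SD) and 2.35% ± 0.432 in grass carp (n = 5, SD). The 30 highest rows held 37.5% ± 0.986 and 29.3% ± 1.52. The 165 members held 67.3% ± 0.684 of tRNA counts in GSCT and 60.1% ± 2.14 in grass carp, and a member had a median of 108 counts over the 8 libraries against 3 for all tRNA rows. At the edge of the rule, 42 members reached 10 counts in exactly 3 libraries (median total 71.5 counts), and 68 rows did so in 2 (median total 49.0).

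Levels per length are a mean over a class. Summed over the class and divided by gene span, tRNA rows were at 25.6 ± 2.40 CPM per kb in GSCT (n = 3, SD) and 11.7 ± 2.12 in grass carp (n = 5, SD). Genes of snRNAs, the RNA parts of the spliceosome, were at 33.4 ± 3.34 and 14.5 ± 2.54 CPM per kb, and genes of snoRNAs, guides of RNA modification, at 29.9 ± 6.54 and 20.2 ± 2.34. Members alone were at 171 ± 16.2 and 69.5 ± 11.2 CPM per kb, levels that the rule selected. Protein-coding genes were at 1.40 ± 0.00758 and 1.46 ± 0.0107 CPM per kb, but their spans include introns.

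Summed by anticodon over all rows, tRNAs for 30 of 45 tested anticodons rose in GSCT and 0 fell (edgeR's quasi-likelihood test, Benjamini-Hochberg adjusted p under 0.05 over 28040 features). Of all features in that fit, 3.29% were called higher and 0.774% lower. By DESeq2 the counts were also 30 and 0, and 0 anticodons were lower at an unadjusted p under 0.05. The median log2 difference (GSCT minus grass carp) was 1.12 over these anticodons and -0.01 over all gene rows tested. Summed by amino acid, 15 of 20 rose and 0 fell by edgeR (0 lower at an unadjusted p under 0.05, and 15 and 0 by DESeq2), against 3.22% called higher and 0.767% lower among all features. In each of these 15 sums every GSCT library was above every grass carp library. The same held for 5.83% of all rows with a count in the 8 libraries. The 15 were called on the same values, so this is no separate support.

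Rows of tyrosine tRNA, which reads tyrosine codons with the anticodon GUA, stood furthest apart. The 39 rows of trnay-gua summed to 108, 169 and 175 CPM in the GSCT libraries. In grass carp libraries 1 to 5 they summed to 41.0, 27.4, 26.8, 33.7 and 28.7 CPM. The groups did not overlap, and the ratio of means was 4.78. The log2 difference was 2.29 ± 0.18 (SE; edgeR adjusted p = 2.25e-08).

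Glycine is read by 3 anticodons here, and 1 of them, trnag-ucc, rose. The trnag-ucc rows, 40 in number, summed to 224, 255 and 273 CPM in GSCT and to 83.4, 39.2, 56.4, 80.9 and 42.8 CPM in grass carp libraries 1 to 5, a log2 difference of 2.13 ± 0.20 (edgeR adjusted p = 5.78e-07). The trnag-gcc rows summed to 60.2 ± 19.3 CPM in GSCT (n = 3, SD) and 52.0 ± 9.41 CPM in grass carp (n = 5, SD), and their difference of 0.38 ± 0.18 did not pass (edgeR adjusted p = 0.246). The trnag-ccc rows were at 4.85 ± 2.58 and 6.14 ± 0.867 CPM (edgeR adjusted p = 0.998). Differences between the changes of these anticodons were not tested.

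Counts on methionine tRNA rows rose as well. Methionine tRNAs start and extend proteins and share the anticodon CAU. The 62 trnam-cau rows summed to 103, 142 and 143 CPM in GSCT and to 45.7, 22.7, 39.6, 53.9 and 37.3 CPM in grass carp libraries 1 to 5. The log2 difference was 1.77 ± 0.19 (edgeR adjusted p = 6.34e-06). Names in the files do not separate initiator from elongator copies. Glutamate trnae-cuc had 83.7 ± 12.9 and 29.7 ± 8.42 CPM (log2 difference 1.65 ± 0.18, edgeR adjusted p = 7.57e-06), and arginine trnar-acg 151 ± 36.8 and 58.7 ± 6.32 CPM (1.39 ± 0.16, adjusted p = 9.63e-06).

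Valine trnav-aac had the highest mean level of any anticodon in grass carp, 84.7 CPM, and held 5.59% of tRNA counts on average over the 8 libraries. In GSCT the means of trnag-ucc (251 CPM) and trnat-cgu (168 CPM) were above its 165 CPM. Its 35 rows summed to 140, 201 and 154 CPM in GSCT and to 99.5, 81.8, 93.0, 79.4 and 70.0 CPM in grass carp libraries 1 to 5, without overlap (log2 difference 1.04 ± 0.15, edgeR adjusted p = 1.95e-04). Threonine trnat-cgu, 13 rows with 4.78% of tRNA counts, was at 168 ± 20.3 and 66.9 ± 19.1 CPM (1.42 ± 0.18, edgeR adjusted p = 6.38e-05).

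Leucine is read by 5 anticodons here, and 4 of them rose by edgeR. The sum of trnal-aag was at 58.5 ± 9.16 CPM in GSCT (n = 3, SD) and 16.4 ± 4.21 CPM in grass carp (n = 5, SD), with a log2 difference of 1.87 ± 0.20 (edgeR adjusted p = 5.75e-06). The fifth, trnal-uaa, was at 37.3, 32.3 and 34.5 CPM in GSCT and at 44.4, 40.3, 50.4, 48.7 and 42.8 CPM in grass carp libraries 1 to 5. Every GSCT library was below every grass carp library for it, but the difference of -0.30 ± 0.15 did not pass (edgeR adjusted p = 0.270). The anticodons trnal-uaa, trnag-gcc, trnag-ccc and trnar-ccg were picked for mention after their values were seen.

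The amino acids of highest mean share of tRNA counts over the 8 libraries were arginine, threonine, leucine, valine, glycine and proline, and the order differed between groups. In grass carp serine (122 CPM) was above proline (121 CPM) and glycine (119 CPM), and in GSCT glycine (316 CPM) was above valine (274 CPM). Arginine rows were at 393 ± 52.2 CPM in GSCT (n = 3, SD) and 182 ± 25.5 CPM in grass carp (n = 5, SD), and threonine rows at 419 ± 47.9 and 162 ± 44.1 CPM. These rose by 1.18 ± 0.15 and 1.45 ± 0.18 on the log2 scale (edgeR adjusted p = 3.27e-05 and 3.72e-05). Leucine rows rose by 1.22 ± 0.15, proline rows by 1.17 ± 0.17 and valine rows by 0.96 ± 0.14 (edgeR adjusted p = 2.82e-05, 3.13e-04 and 2.42e-04).

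The 5 amino acids that did not pass were alanine, cysteine, isoleucine, asparagine and tryptophan. Alanine, with 123 rows, was at 96.5, 121 and 133 CPM in GSCT and at 90.3, 70.3, 116, 92.1 and 78.8 CPM in grass carp libraries 1 to 5, and the groups overlapped (log2 difference 0.42 ± 0.16, edgeR adjusted p = 0.139). Isoleucine, with 102 rows, was at 30.7 ± 4.55 CPM in GSCT (n = 3, SD) and 30.9 ± 3.80 CPM in grass carp (n = 5, SD), a difference of 0.13 ± 0.17 (edgeR adjusted p = 0.744). Asparagine had 10 rows at 11.5 ± 4.72 and 10.8 ± 2.04 CPM, and tryptophan 54 rows at 39.3 ± 4.00 and 33.4 ± 7.85 CPM (edgeR adjusted p = 0.999 and 0.378). Cysteine, with 64 rows but no member, was at 3.31 ± 3.08 and 3.32 ± 0.928 CPM.

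**Figure D2:**
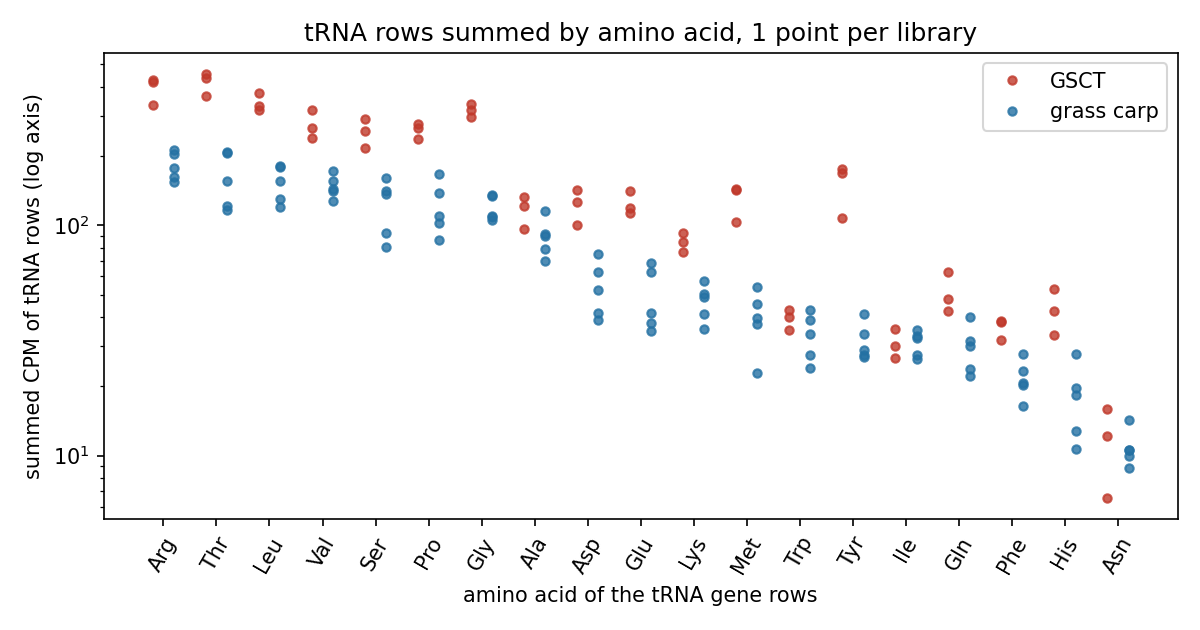
Summed CPM of all tRNA rows of each amino acid that has a member (log axis), 1 point per library, GSCT in red and grass carp in blue. GSCT points of tyrosine lie at 108 to 175 CPM against 26.8 to 41.0 CPM in grass carp, while those of isoleucine and asparagine overlap.

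Expressed as a share of tRNA counts, no amino acid passed (20 exact permutation tests added after the data were examined, smallest adjusted p = 0.0595). That value is set by the design: 6 amino acids were at the smallest p that 56 splits allow, 0.0179, and too few reached it for an adjusted p to pass. GSCT and grass carp did not overlap in 8 of the 20, 4 higher and 4 lower in GSCT. Tyrosine made up 4.66% ± 0.769 of tRNA counts in GSCT (n = 3, SD) and 2.17% ± 0.272 in grass carp (n = 5, SD; exact permutation p = 0.0179, adjusted p = 0.0595). Alanine made up 3.63% ± 0.292 and 6.16% ± 1.06, isoleucine 0.963% ± 0.149 and 2.13% ± 0.172, and tryptophan 1.24% ± 0.242 and 2.28% ± 0.378, each at the same exact permutation p of 0.0179 and adjusted p of 0.0595.

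Of the 165 members, 141 passed edgeR's filter on low counts and 24 did not. By its quasi-likelihood test 68 rose in GSCT and 0 fell, where 3.49% of all 28165 gene rows tested were called higher and 0.849% lower. Without the filter, which lets all 165 be tested, 67 rose and 0 fell against 3.13% called higher and 0.945% lower among 30591 rows. DESeq2 called 64 higher and 0 lower against 2.95% higher and 0.490% lower among all gene rows, and 0 members were lower at an unadjusted p under 0.05 by edgeR. The median log2 difference over all 165 members was 1.17, from -2.00 to 3.62. Without GSCT replicate 2 edgeR called 32 members higher, where 0.912% of all gene rows were called higher and 0.0801% lower.

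Rises were spread over 15 of the 19 amino acids that have members. Threonine had 10 of 14 members called higher by edgeR, leucine 10 of 19, glycine 7 of 11, proline 7 of 15 and aspartate 6 of 9. The 10 leucine rows all reached 10 counts in fewer than 3 grass carp libraries, so they depended on GSCT counts to be kept. The same held for some called rows of the other amino acids just named. Valine, with the most members, had 5 of 23, arginine 5 of 17 and alanine 1 of 11. Among all gene rows tested 3.49% were called higher. These totals include members that edgeR's filter removed. Tested were 13 threonine, 15 leucine, 10 glycine, 14 proline, 8 aspartate, 19 valine, 17 arginine and 7 alanine members. Phenylalanine, isoleucine, asparagine and tryptophan had no called member among 3, 2, 1 and 4, but 1 isoleucine member and all 4 of tryptophan were removed by the filter and could not be called.

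How a member met the rule bears on these counts. Of the grass carp libraries 4 were deeper than every GSCT library, and 28 members reached 10 counts in no GSCT library. Of these 17 were removed by edgeR's filter and could not be called, and 0 of the 11 tested rose. The median log2 difference of the 28 without a filter was -0.50. Another 44 members reached 10 counts in fewer than 3 grass carp libraries, and had to be relatively high in GSCT to be kept. Of these 38 were tested and 26 called, with a median of 2.02 over the 44. The 121 members other than these 44, among them the 28 above, had 10 counts in at least 3 grass carp libraries. These 121 could be kept without GSCT counts. Of these 103 were tested and 42 rose, with a median of 0.61 over the 121. Among all gene rows tested 3.49% were called higher.

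**Figure D3:**
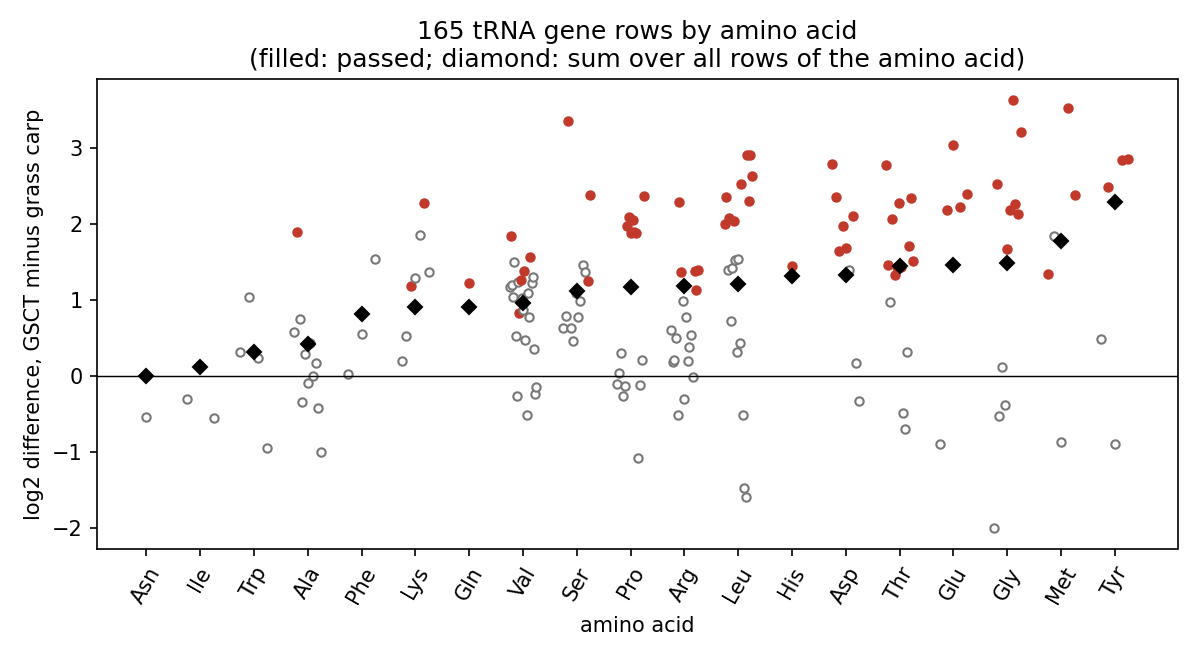
Log2 difference (GSCT minus grass carp, edgeR without a filter) of each of the 165 members by amino acid, with filled points for those past adjusted p under 0.05 and black diamonds for the sum over all rows of the amino acid. Filled points all lie above 0, and rows of 1 amino acid spread over several log2 units, as in glycine from -2.00 to 3.62.

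The threonine row trnat-cgu_12 had the highest mean level over the 8 libraries and within grass carp (35.2 CPM), while trnag-ucc_5 had the highest within GSCT (97.7 CPM against 90.4 CPM for trnat-cgu_12). It held 85.7, 95.4 and 90.2 CPM in GSCT, and 50.4, 27.2, 35.7, 42.7 and 20.3 CPM in grass carp libraries 1 to 5. The groups did not overlap, and the log2 difference was 1.45 ± 0.21 (edgeR adjusted p = 2.59e-04). Next came trnas-gcu_4, a serine tRNA gene, at 68.0, 79.5 and 95.5 CPM in GSCT, and 36.4, 32.4, 40.6, 35.2 and 25.8 CPM in the grass carp libraries. Its difference was 1.26 ± 0.16 (edgeR adjusted p = 3.84e-05).

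Glycine row trnag-ucc_5 was at 83.0, 90.7 and 119 CPM in GSCT and at 29.3, 17.2, 18.9, 35.2 and 16.1 CPM in grass carp libraries 1 to 5. It had the lowest p of any member (log2 difference 2.14 ± 0.21, edgeR adjusted p = 1.21e-06). The other rows among the 8 of highest mean level were trnav-aac_7 (valine), trnat-agu_12 (threonine), trnar-acg_5 and trnar-ucu_14 (arginine), and trnap-cgg_7 (proline). All 5 rose, by 1.15 ± 0.21 for trnar-ucu_14 to 2.30 ± 0.28 for trnar-acg_5 on the log2 scale (edgeR adjusted p = 0.00282 and 3.31e-05). The call of trnat-agu_12 (1.48 ± 0.24, edgeR adjusted p = 7.43e-04) was lost without GSCT replicate 2 (1.22, adjusted p = 0.0555).

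Rows of lower level among the called rises of lowest p included several glycine rows. Of these trnag-ucc_22 reached 10 counts in 3 GSCT libraries but in 1 grass carp library, so it was kept through the group where it was high. It was at 18.8, 31.8 and 26.5 CPM in GSCT and at 4.89, 0.523, 1.13, 3.75 and 1.097 CPM in grass carp libraries 1 to 5, a log2 difference of 3.64 ± 0.43 (edgeR adjusted p = 2.19e-05). Grass carp library 1 was the highest of its group for it, with 25 counts. Glycine row trnag-ucc_2 was at 38.8, 49.6 and 23.9 CPM in GSCT and at 13.7, 5.75, 8.12, 14.2 and 7.31 CPM in grass carp (2.19 ± 0.26, edgeR adjusted p = 2.55e-05). Another glycine row, trnag-ucc_7, was at 28.4, 31.3 and 23.9 CPM in GSCT and at 3.13, 2.09, 6.23, 0 and 2.38 CPM in grass carp, where library 4 had 0 counts (3.22 ± 0.35, edgeR adjusted p = 6.74e-06). Tyrosine row trnay-gua_8 was at 29.6, 22.0 and 23.9 CPM in GSCT and at 6.25, 3.14, 2.64, 2.25 and 3.11 CPM in grass carp. It rose by 2.86 ± 0.30 (edgeR adjusted p = 3.73e-06). In none of these rows did the groups overlap, and each kept its call when any 1 library was left out.

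Lower members did not pass in any fit. In 4 members every GSCT library was below every grass carp library, against 71 in which every GSCT library was above. Over all rows with a count these shares were 9.14% and 5.83%. The rule bears on both counts. All of the 4 reached 10 counts in no GSCT library and so were kept through grass carp alone. Of the 71, 28 reached 10 counts in fewer than 3 grass carp libraries and so depended on GSCT counts to be kept. The 4, named after their values were seen, were trnan-guu_6, trnap-ugg_28, trnal-uaa_4 and trnag-ccc_2. Asparagine row trnan-guu_6 was at 2.69, 2.81 and 2.65 CPM in GSCT, on 7, 6 and 1 counts, and at 2.93 to 5.75 CPM in grass carp (log2 difference -0.52 ± 0.45, edgeR adjusted p = 0.564). Glycine row trnag-ccc_2 held 3, 0 and 0 counts in GSCT and 10, 12, 15, 6 and 8 counts in grass carp, and without a filter its difference was -2.00 (edgeR adjusted p = 0.183). In GSCT library 3, 1 count is worth about the level of such a row, and a count of 0 there allows up to 7.96 CPM.

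Copies of 1 anticodon differed in their calls. Of 42 anticodons with a member, all members rose in 7, some in 20 and none in 15, where 3.49% of all gene rows tested were called higher. Of the 7, trnah-gug, trnaq-cug and trnas-uga had 1 member each. The members of trnas-uga and trnal-aag depended on GSCT counts to be kept. Of the 15, trnag-ccc, trnai-uau, trnal-uaa and trnaw-cca had no member past edgeR's filter, so none could be called. All 6 members of trnag-ucc rose, with log2 differences without a filter from 1.66 to 3.62, but 2 of them, trnag-ucc_22 and trnag-ucc_3, reached 10 counts in 1 grass carp library and so depended on GSCT counts to be kept. All 4 members of trnat-cgu rose, from 1.33 to 2.27. Leucine trnal-uag had 4 of 5 members that rose, each kept with the help of GSCT counts since it reached 10 counts in fewer than 3 grass carp libraries, and a range from -1.59 to 2.91. Of 10 valine trnav-aac members 3 rose, over a range from -0.26 to 1.84. Calls also varied with mean level over the 8 libraries, a mean that includes GSCT. Called were 1 of 34 members under 3 CPM, 35 of 94 at 3 to 10 CPM and 32 of 37 above 10 CPM. Differences between copies, and the part of level in them, were not tested.

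Members that follow each other without a gap in the row order of the deposited files had like differences. Of the 165 members, 81 lay in 29 runs of 2 to 8 such rows. The median gap between the log2 differences of neighbours was 0.32 over 52 neighbouring pairs, and 1.101 over all pairs of members, as a description with no test. In 7 runs all members rose, in 14 none did, and in 8 some did, where 3.49% of all gene rows tested were called higher. Some of the 14 hold rows that edgeR's filter removed and that could not be called, such as trnaa-ugc_19 and trnav-cac_21. Several of the 7 hold rows that reached 10 counts in fewer than 3 grass carp libraries, and so depended on GSCT counts to be kept. The longest run, from trnat-ugu_6 to trnay-gua_8, holds tRNA genes for threonine (3 rows), leucine, arginine, methionine, glutamate and tyrosine. All 8 rose, by 1.71 to 3.53 on the log2 scale without a filter, and their summed level averaged 236 CPM over GSCT libraries and 48.3 CPM over grass carp libraries. Among them trnal-cag_6, trnae-cuc_8 and trnam-cau_8, which sets the upper end of 3.53, depended in this way on GSCT counts to be kept. The run of 5 proline rows from trnap-agg_21 to trnap-ugg_34 held 27.3 and 29.1 CPM, with differences from -0.12 to 0.31 and 0 calls by edgeR. Whether neighbouring copies share reads was not tested.

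**Figure D4:**
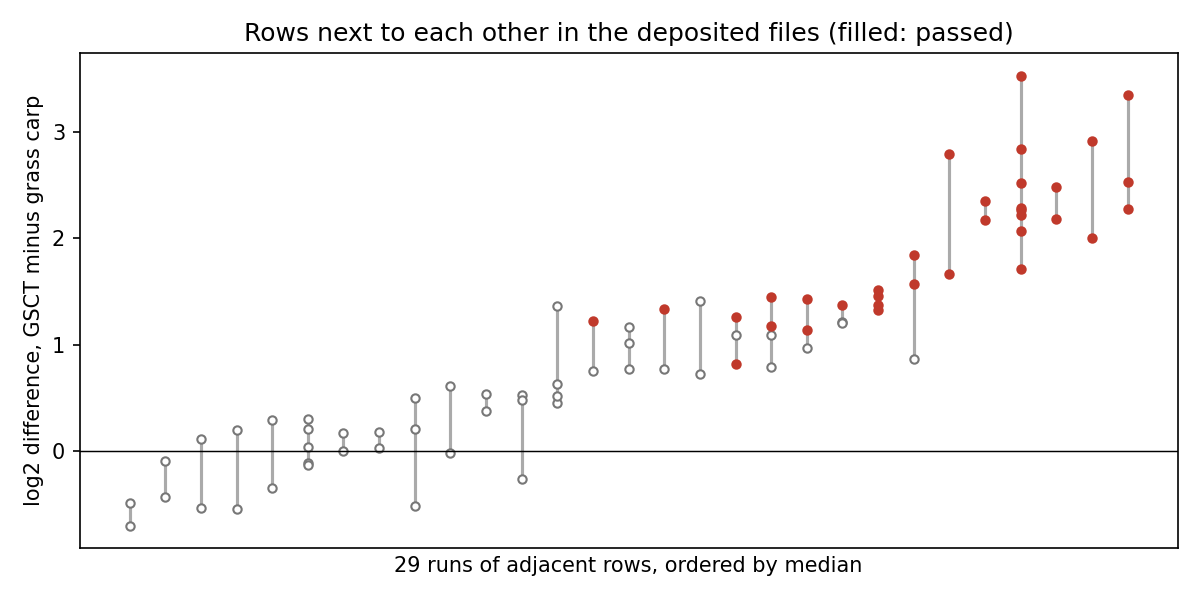
Log2 difference (GSCT minus grass carp, edgeR without a filter) of the 81 members that lie in 29 runs of adjacent rows, 1 column per run, ordered by the run's median, with filled points for members past adjusted p under 0.05. A median gap of 0.32 separates neighbours, and 7 of the 8 runs furthest right are wholly filled.

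Rank orders of levels were compared between libraries as a description. Across the 165 members, which are not independent replicates and share libraries and reads, the mean Spearman rho of log2(CPM + 1) was 0.766 over 3 pairs of GSCT libraries and 0.588 over 10 pairs of grass carp libraries. It was 0.414 over 15 pairs of a GSCT with a grass carp library. The rule bears on this value, since 28 members were kept through grass carp alone and 44 depended on GSCT counts. Over all 1625 tRNA rows, most of them with few counts, the order of these values was another one: 0.662 for GSCT pairs, 0.789 for grass carp pairs and 0.684 for mixed pairs. Grass carp libraries were uneven among themselves: 104 of 165 members had their lowest grass carp CPM in library 2 or 5, the libraries with the lowest tRNA shares. Members held 60.1% ± 2.14 of tRNA counts in grass carp (n = 5, SD). Library 4, the shallowest of grass carp, with a tRNA share of 0.172%, was lowest for 32 members. Library 3, with a share of 0.149%, was lowest for 21. The parts of tRNA share and depth in this pattern were not tested.

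Rows whose names carry no copy number fall outside the rule. Among these 47 rows 11 held 10 counts in 3 of the 8 libraries, and 4 of them rose by edgeR: trnar-ccg, trnae-uuc, trnal-uag and trnal-aag. Of the 11, trnak-cuu, trnam-cau, trnag-ccc, trnaw-cca and trnas-cga were removed by edgeR's filter and could not be called. Among all gene rows tested 3.49% were called higher. The row trnar-ccg was at 46.1, 58.0 and 39.8 CPM in GSCT and at 21.5, 6.01, 14.2, 14.2 and 7.31 CPM in grass carp libraries 1 to 5 (log2 difference 2.05 ± 0.29, edgeR adjusted p = 1.82e-04). The only member with its anticodon, trnar-ccg_9, was not called, so the rise of that anticodon's sum (1.68 ± 0.21, edgeR adjusted p = 3.86e-05) rests mostly on a row the rule leaves out.

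Zebrafish libraries had few counts on the same rows. Their reads were counted on grass carp genes at low depth, so these counts also depend on which zebrafish reads align there. All 1625 tRNA rows held 44, 37, 1, 23 and 77 counts in zebrafish libraries 1 to 5, or 0.0177%, 0.0625%, 0.205%, 0.0218% and 0.0420% of named counts. Only library 3, with 1 count of 487, exceeded a grass carp share, and its Wilson interval ran from 0.0363% to 1.15%. Members held 26 of the 182 counts, on 11 rows, and the other members had 0 in all 5 libraries. Leucine row trnal-cag_26 held 9 of them, 5 in library 1 and 4 in library 2, and was at 13.9 ± 5.12 CPM in grass carp (n = 5, SD) and 18.8 ± 2.22 CPM in GSCT (n = 3, SD). Of the zebrafish tRNA counts 62 lay on arginine trnar-ccu rows, 31 of them on trnar-ccu_29, which is no member and held 3 counts over the GSCT libraries.

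Genes of proteins that make and use tRNAs showed few changes. Synthetases join amino acids to tRNAs: of 41 tested 1 rose by edgeR, namely ears2, the mitochondrial glutamate enzyme, at 21.9, 29.0 and 34.5 CPM in GSCT and at 17.0, 13.3, 17.2, 18.7 and 16.1 CPM in grass carp libraries 1 to 5 (log2 difference 0.78 ± 0.20, adjusted p = 0.0325). In the list of RNA polymerase III and its factors 0 of 34 passed by edgeR and 6 had an unadjusted p under 0.05, as had 5629 of all 28165 gene rows tested. The lowest p was that of polr3gla, a subunit, at 14.5 ± 6.32 CPM in GSCT (n = 3, SD) and 28.6 ± 6.94 CPM in grass carp (n = 5, SD; -0.74 ± 0.25, edgeR adjusted p = 0.0960). The summed CPM of that list was 804 to 830 in GSCT and 930 to 985 in grass carp, lower in every GSCT library, with no test. The same held for the sums of sperm, leukocyte and blood cell markers, and for 9.14% of all rows with a count. In the sums of the other pathway lists and of testis somatic markers the groups overlapped.

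Of 23 tested genes of tRNA processing and export 1 rose by edgeR, pop1, a protein of RNase P, which trims the 5′ end of tRNA precursors. It was at 47.2 ± 10.2 CPM in GSCT (n = 3, SD) and 24.5 ± 8.94 CPM in grass carp (n = 5, SD; log2 difference 0.96 ± 0.25, edgeR adjusted p = 0.0331). Of 70 genes of tRNA modification 1 rose, pus7, a pseudouridine synthase, at 68.5 ± 13.3 and 29.1 ± 9.41 CPM (1.29 ± 0.22, edgeR adjusted p = 0.00124). No gene of the 4 lists was called lower by edgeR or DESeq2, which also called 3 higher, and 11, 6, 6 and 9 genes had an unadjusted p under 0.05 by edgeR in either direction, again to be read against 5629 of 28165. With 3.49% of all gene rows called higher, these shares are near the background. Medians of the log2 differences in the 4 lists were -0.03, -0.14, 0.05 and -0.09, in the order given, against -0.01 over all gene rows tested. Without GSCT replicate 2 none of the 3 calls held (edgeR adjusted p = 0.291 for ears2, 0.225 for pop1 and 0.0525 for pus7). The calls of ears2 and pop1 were also lost without GSCT replicate 3 (adjusted p = 0.0812 and 0.105) or grass carp replicate 5 (0.0676 and 0.0705), and with scaling by library size alone (0.0560 and 0.0507). Those of ears2 without grass carp replicate 3 (edgeR adjusted p = 0.0572) and of pop1 without GSCT replicate 1 (adjusted p = 0.0762) were lost as well.

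The same fit covered other classes of short RNA genes. By edgeR 79 of all 170 tested tRNA rows, or 46.5%, were called higher, 16 of 31 snRNA genes, or 51.6%, 2 of 25 snoRNA genes, or 8%, and 44 of 51 rRNA genes, or 86.3%. Protein-coding genes were called higher in 2.87% of 24397. Median log2 differences were 1.38 for tRNA rows, 1.50 for snRNA, 0.34 for snoRNA, 4.32 for rRNA and -0.03 for protein-coding genes. Differences between the classes were not tested.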

How the data were processed

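Each library came with a table of raw gene counts that the authors deposited, with the same 31338 rows. Per the submitters' processing notes, which give no versions or roles, the tools were featureCounts, Subread, HISAT2, SAMtools, fastp, FastQC and CASAVA. For the genome build, the strand setting and multi-mapping reads, the treatment is not given in the sources used here. Of these, 24 rows name no gene and were left out. They held 0.172% to 0.678% of counts in GSCT, 0.00360% to 0.138% in grass carp and 13.8% to 77.9% in zebrafish libraries.

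GSCT and grass carp libraries were compared with edgeR 4.0.16 (R 4.3.3): scaling by TMM, filterByExpr with its defaults (10 counts at least, 15 in total), the quasi-likelihood F test and Benjamini-Hochberg adjustment over all features, with calls at adjusted p under 0.05. The fit ran on gene rows, and again with all tRNA rows summed by anticodon or by amino acid. Fold changes are log2, GSCT minus grass carp, with the SE from the F statistic. DESeq2 1.42.0 was an alternative. Shares were compared by exact two-sided permutation over 56 splits. Intervals and floors (3 counts, 95% Wilson) cover counting error only, since amplified reads are not independent molecules.

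Members, lists and tests were chosen with earlier results of these data known. Rows were eligible for naming as the 8 of highest mean CPM and up to 8 called rises and falls of lowest p. For sums, up to 6 called rises and falls and the 6 of highest share were taken, and for the pathway lists called genes, or the gene of lowest p. The fits were tested on simulated counts. Labels give the replicates as separate fish. Same-numbered fish are not linked by the labels.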

Additional observations from a re-analysis of the deposited data

Results flagged for a closer look

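In 37 groups of 5 libraries checked, a library stood far from the others in 2, and chance flags about 1 in 20. The tRNA share of zebrafish library 3 was 0.205% of named counts, above 0.0177% to 0.0625% in the other zebrafish libraries, and it rests on 1 count. Tyrosine row trnay-gua_8 was at 6.25 CPM in grass carp library 1, against 2.25 to 3.14 CPM in the other grass carp libraries, and still below every GSCT library.

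In zebrafish libraries, which enter no test, 2 members held more than the 3 counts of the floor. Leucine row trnal-cag_26 had 5 counts in zebrafish library 1 and 4 in library 2, and valine row trnav-uac_27 had 4 in library 5.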

How the results depend on the processing

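The tRNA share kept its direction under the 5 other sums and denominators and the 8 left-out libraries (difference 0.164 to 0.191 percentage points without 1 library). Its unadjusted exact permutation p stayed under 0.05, at 0.0286 to 0.0476 without 1 library. These p were not adjusted over the 2 exact tests, as the main result was. With that adjustment some of the runs without 1 library would not pass. Rows detected at equal depth differed by 80.5 to 116 without 1 library, and 4 of those differences did not pass. Members called higher were 74 of 377 at a minimum of 5 counts and 43 of 73 at a minimum of 20 counts. Of all tRNA rows 170 passed edgeR's filter, so most of the 377 could not be called. The 377 and the 73 are not split here by the group through which they met the minimum. At 10 counts in 3 libraries of each group, 17 of 17 were called higher. That rule includes the shallow GSCT library 3 and so keeps rows that are high in GSCT. Among all gene rows tested 3.49% were called higher and 0.849% lower. Members called higher were 32 to 71 without 1 library. The value of 32, without GSCT replicate 2, comes with 262 gene rows called higher in all, in place of 984. Anticodon sums called higher were 20 to 31 and amino acid sums 12 to 15 without 1 library. No tRNA row or sum was called lower under any alternative run. Pathway genes called higher numbered 3, and 0 to 4 without 1 library, and those called lower 0 to 3. With library size as the only scaling, 1 was higher and 1 lower. The polr3gla difference passed without grass carp replicate 1 (-0.84, edgeR adjusted p = 0.0368). The causes of these shifts were not tested.

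With the replicate number as a block, 62 members, 30 anticodon sums, 15 amino acid sums and 3 pathway genes were called higher, and the block moved no count by over 1.5 times. In the main fit 3.49% of all gene rows tested were called higher. Same-numbered GSCT and grass carp libraries deviated together only weakly (r = 0.0486, 0.0532 and -0.00701), and not every library correlated best with its own number, so the numbers were not taken as pairs. Depth limits GSCT library 3 most: with 376926 named counts, a count of 0 there allows up to 7.96 CPM.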
